A study of Mus musculus with 32 samples.

Results

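The 10 genes described here define the identity of oligodendrocyte progenitor cells, and they were taken by name: Pdgfra, Cspg4, Ptprz1, Cntn1 and Lhfpl3, which code for membrane proteins, and Olig1, Olig2, Sox10, Nkx2-2 and Sox6, which code for transcription factors. RADICL-seq joins RNA to nearby DNA in crosslinked nuclei, so each interaction pairs an RNA tag with a DNA tag. The members were 10 of 17784 transcripts listed as RNA in the data, and their RNA took part in 161316 of 25231081 interactions over 15 libraries. The DNA tags that fell on the 10 genes were also counted, by the gene of the contacting RNA.

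Oligodendrocyte progenitors divide under platelet-derived growth factor, which they sense through PDGFRA, and carry the NG2 proteoglycan, the product of Cspg4, on their surface. OLIG1, OLIG2, NKX2-2 and SOX10 set up the oligodendrocyte lineage, and SOX6 helps to hold its cells in the progenitor state. Nascent transcripts stay close to the gene that makes them, so capture of an RNA on chromatin reflects transcription at its gene as well as contacts made farther away.

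The libraries came from 2 mouse lines, the R08 embryonic stem cell line (mESC) and Oli-neu, an immortalised oligodendrocyte progenitor line (mOPC). The mESC groups were 1FA (fixed with 1% formaldehyde, n = 3 libraries), 2FA (2% formaldehyde, n = 3), ActD4 (transcription blocked for 4 hours with 5 µg/ml of actinomycin D, n = 2) and NPM (n = 2), and the mOPC groups were 1FA (n = 3) and NPM (n = 2). NPM stands for non-protein-mediated: proteinase K and reversal of the crosslinks removed protein before the RNA was ligated. Both lines were grown untreated apart from ActD4, mESC in medium with leukemia inhibitory factor and serum and mOPC in medium with PDGF-BB, basic fibroblast growth factor and thyroid hormones. Each cell type is thus 1 line, an expanded culture and not primary tissue, and the replicates are batches of different passage number.

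The libraries listed between 251802 interactions in mESC ActD4 replicate 2 and 2832717 in mESC 1FA replicate 3. A file lists an interaction only where its transcript and 25-kb DNA bin formed a pair that passed the authors' significance threshold on the pooled replicates of the group. A transcript listed at 0 may therefore have been captured below that threshold, the totals are not sequencing depth, and the replicates of a group share 1 list of pairs. In these bulk libraries, fewer cells with an RNA and less RNA per cell cannot be told apart. The line labels were set beside marker lists: of 30 other mOPC markers, 18 were tested and 17 were higher in mOPC 1FA than in mESC 1FA, and of 30 mESC markers, 22 were tested, of which 18 were lower and 3 higher. Over all transcripts 35.2% were higher and 42.7% lower. The study took both lists from the literature. These counts are not a test of the labels, since a marker at 0 in one line could be called in 1 direction only. Of the 30 other mOPC markers, 16 were listed in each mESC 1FA library. Of the mESC markers 8 were listed in mOPC 1FA, with a sum of 779 to 842 CPM (interactions of an RNA scaled by the total of its library), while Esrrb, Cdh1 and Tfcp2l1, regulators and an adhesion protein of embryonic stem cells, were at 0 there. Of 13 neuron markers, 3 were listed in mOPC 1FA, with a summed level of 1262 to 1487 CPM against 343 to 395 in mESC 1FA, led by the dendritic protein gene Map2 and the synaptic gene Syt1. Of the 5 neuron markers tested, 3 were higher in mOPC 1FA and 2 lower. Rbfox3, a gene of neurons, had 53, 95 and 64 interactions in mESC 1FA and was at 0 in mOPC 1FA, but had 130 and 126 in mOPC NPM. Astrocyte markers summed to 38.9 to 53.0 CPM and microglia markers to 16.1 to 20.8 in mOPC 1FA, against 113 to 171 and 37.8 to 43.8 in mESC 1FA. In mOPC NPM the sums were 1215 and 1111 CPM for neuron markers, 119 and 137 for astrocyte markers (4 of the 5 tested of 9 were higher than under 1FA) and 58.1 and 73.9 for microglia markers (1 of the 2 tested of 8). Of all transcripts tested between mOPC NPM and 1FA, 31.8% were higher. Gja1 of the astrocyte and Csf1r of the microglia markers were at 0 in every mOPC library. The part of these lists in the results was not tested.

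In the mm10 assembly, the membrane protein genes lie at chr5:75152292-75198215 (Pdgfra, plus strand), chr9:56865033-56899870 (Cspg4, plus), chr6:22875502-23052916 (Ptprz1, plus), chr15:92051165-92341967 (Cntn1, plus) and chr5:22746059-23275597 (Lhfpl3, plus). The transcription factor genes lie at chr16:91269772-91271933 (Olig1, plus), chr16:91225457-91228677 (Olig2, plus), chr15:79154908-79165240 (Sox10, minus), chr2:147177546-147194243 (Nkx2-2, minus) and chr7:115470872-116038796 (Sox6, minus). Pdgfra shares a chromosome with Lhfpl3, Sox10 with Cntn1, and Olig1 with Olig2.

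The RNA of the 10 genes made up 1.81%, 1.89% and 2.00% of all interactions in the mOPC 1FA libraries, or 40016, 39821 and 40053 interactions. The mESC 1FA libraries held 72, 140 and 143. Protein removal left the share in mOPC at 1.70% and 1.59%. The members differed widely from each other in this capture, as the plot of capture by library shows.

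**Figure D1:**
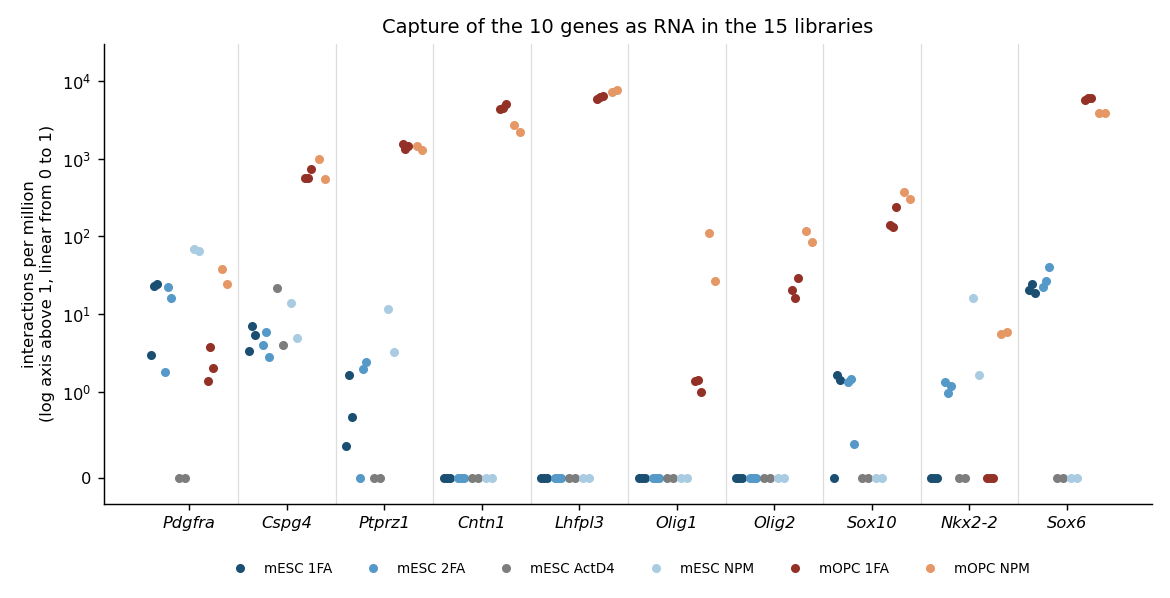
CPM (interactions scaled by the total of each library) for the RNA of the 10 genes. Each point is 1 library, coloured by group, and the axis is logarithmic above 1 and linear below. Lhfpl3, Sox6, Cntn1 and Ptprz1 lie above 1000 in every mOPC library, Pdgfra and Nkx2-2 lie below 40 in every mOPC library, and Cntn1, Lhfpl3, Olig1 and Olig2 are at 0 in every mESC library.

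Among the membrane proteins, Lhfpl3, a tetraspan protein of the LHFPL family that is commonly used as a progenitor marker, was listed at 0 in all 10 mESC libraries. Its RNA had 12916, 13200 and 12965 interactions in mOPC under 1FA and 9299 and 9022 under NPM. It ranked 5 among the 11681 transcripts listed in mOPC 1FA and 3 among the 14633 of mOPC NPM. Cntn1, a GPI-anchored adhesion protein of the contactin family, was likewise at 0 in mESC and had 9565, 9474 and 10012 interactions in mOPC under 1FA and 3458 and 2613 under NPM, with ranks of 10 and 13. The libraries of the 2 lines did not overlap for either gene. Under 1FA the lines did not overlap, in either direction, for 8286 of the 10007 transcripts tested, so nothing particular is read from this.

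Ptprz1, a receptor tyrosine phosphatase that binds pleiotrophin, had 1, 4 and 2 interactions in mESC 1FA. The mOPC libraries held 3387, 2849 and 2881 under 1FA and 1839 and 1562 under NPM. Cspg4 had 9, 17 and 15 in mESC 1FA, against 1230, 1181 and 1493 in mOPC under 1FA and 1276 and 647 under NPM. All mOPC libraries were above all mESC libraries for both genes, where 8286 of 10007 transcripts tested under 1FA did not overlap in either direction.

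Pdgfra, which codes for the receptor of the progenitor mitogen, was the exception among the membrane proteins. In mESC it had 8, 56 and 69 interactions under 1FA, 4, 45 and 41 under 2FA and 30 and 40 under NPM. The mOPC libraries held 3, 8 and 4 under 1FA and 48 and 29 under NPM. The 1FA libraries of the 2 lines overlapped, since mOPC replicate 2 lay above mESC replicate 1 once scaled by the library totals, and mESC replicate 1 stood below replicates 2 and 3 under both 1FA and 2FA, whose same-numbered libraries deviated together over all transcripts (r = 0.183 to 0.355). Pdgfra did not pass the filter on low counts in the comparison of the lines under 1FA. Without mESC 1FA replicate 1 it passed through the other mESC libraries alone, so that lower in mOPC was the only direction a call could take, and nothing is read from that fit.

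Pdgfra is also a marker of primitive endoderm. The low level in replicate 1 was shared by genes of that lineage, a list chosen after the values were seen: Gata4, a transcription factor, had 108, 333 and 425 interactions in mESC under 1FA and 42, 329 and 350 under 2FA, and Col4a1, a basement membrane collagen, had 260, 817 and 920 and then 126, 712 and 752. The 8 genes of the list summed to 246, 890 and 912 CPM in mESC 1FA, to 1942 and 2100 in mESC NPM, and to between 5.5 and 49.5 in the mOPC libraries, with Sox17 listed in none. The part of these cells or genes in the Pdgfra values was not tested.

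Among the transcription factors, Sox6 was the one with high capture. It had 54, 59 and 53 interactions in mESC under 1FA, 50, 54 and 102 under 2FA, and 0 in the ActD4 and NPM libraries of mESC. In mOPC it had 12554, 12797 and 12155 under 1FA and 4959 and 4594 under NPM, ranking 6 and 8. Sox10 had 0, 4 and 4 in mESC 1FA, against 313, 275 and 483 in mOPC under 1FA and 473 and 364 under NPM. For both Sox genes every mOPC library stood above every mESC library, where 8286 of 10007 transcripts tested under 1FA did not overlap in either direction.

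Olig2 was at 0 in mESC and had 45, 34 and 58 interactions in mOPC under 1FA and 147 and 101 under NPM. Its neighbour Olig1, a gene without introns, had 3, 3 and 2 under 1FA and 141 and 32 under NPM. Nkx2-2 was at 0 in both lines under 1FA, and had 3, 2 and 3 in mESC under 2FA, with 7 and 1 under NPM in mESC and 7 and 7 in mOPC. The NPM libraries of mOPC were above the 1FA libraries for all 3 genes. These groups did not overlap, in either direction, for 9392 of the 11586 transcripts tested, so nothing particular is read from this.

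Levels were compared between genes per kilobase of gene length, since long genes offer more RNA. On this scale the order in mOPC 1FA was Cspg4 at 17.8 ± 3.13 CPM per kb (SD, n = 3), Sox10 at 16.6 ± 5.92, Cntn1 at 15.9 ± 1.22, Lhfpl3 at 11.7 ± 0.617, Sox6 at 10.5 ± 0.404, Ptprz1 at 8.13 ± 0.508 and Olig2 at 6.78 ± 2.04. Cspg4, Sox10 and Cntn1 differed by less than their spread, as did Ptprz1 and Olig2. Olig1 at 0.583 ± 0.105 and Pdgfra at 0.0519 ± 0.0275 were far below. In mOPC NPM, Sox10 at 32.8 ± 4.51, Olig1 at 31.8 ± 27.4 and Olig2 at 31.1 ± 6.73 (SD, n = 2) led and did not differ beyond their spread, and Sox6 at 6.83 ± 0.0464 was among the lower ones.

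The comparison of the lines asks which transcripts are captured on chromatin in a cell-type-specific way. Of the 10 genes, 7 passed the filter on low counts and were called higher in mOPC 1FA than in mESC 1FA, where 35.2% of the 10007 transcripts tested were higher. Nothing is read from this count, since 5 of the 7 (Sox10, Olig2, Ptprz1, Cntn1 and Lhfpl3) reached the filter in mOPC libraries alone and could be called in no other direction. The log2 fold change was 7.39 ± 0.24 for Cspg4 (adjusted p = 2.32e-08), 8.65 ± 0.11 for Sox6 (adjusted p = 2.31e-09) and 10.96 ± 0.35 for Ptprz1 (adjusted p = 2.19e-08, limma). Sox10 was higher by 8.02 ± 0.74 (adjusted p = 2.02e-05), a fitted value that rests partly on the mESC library at 0 and was 7.03 without that library. Cntn1, Lhfpl3 and Olig2 were called with adjusted p = 5.50e-10, 5.49e-10 and 1.40e-08, and with mESC at 0 their fold change has no fixed value. The median over all transcripts tested was -0.20. Scaling each library by its total in place of the trimmed mean of M-values (TMM) moved the median of all transcripts to -0.70 and the split of calls from 3522 higher and 4272 lower to 2610 and 5436. The 7 members were still called higher, which for the 5 named above was the only direction open.

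After protein removal in both lines, 8 of 9 members tested were higher in mOPC NPM than in mESC NPM, where 27.2% of 10980 transcripts were (2982 higher and 2541 lower, or 2291 and 3592 with scaling by total). Cspg4 was higher by 6.76 ± 0.52 on the log2 scale (adjusted p = 0.000309) and Ptprz1 by 8.04 ± 0.53 (adjusted p = 0.000151, limma). The other 6 (Sox10, Olig1, Olig2, Sox6, Cntn1 and Lhfpl3) were at 0 in mESC NPM and passed the filter through mOPC alone, so the direction of their calls was fixed by it and the count is not read against that share. Pdgfra had a log2 fold change of -0.73 ± 0.28 and did not pass (adjusted p = 0.0846), but it was called lower with scaling by total (-1.14, adjusted p = 0.0279).

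Genes of related lists are given with the shares over all transcripts (35.2% higher and 42.7% lower), and nothing particular to a list is read from its counts, since the lists were chosen with results known and a gene at 0 in one line can be called in 1 direction only. In the list of PDGF, FGF and neuregulin receptor signalling, 23 of 26 genes were tested, 8 were higher in mOPC 1FA and 13 lower, and their median fold change was -0.40 (log2), near that of all transcripts. Erbb4, a neuregulin receptor, rose from 7, 6 and 2 interactions in mESC 1FA to 3937, 4007 and 3983 in mOPC 1FA (10.44 ± 0.39, adjusted p = 5.48e-08). Shc3, an adaptor of receptor kinases, was at 0 in mESC and had 542, 568 and 494 in mOPC. Nrg1, a neuregulin ligand, had 199, 581 and 769 in mESC 1FA and was listed at 0 in mOPC 1FA.

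Of 22 ligands and partners of contactins and PTPRZ, 16 were tested, 11 were higher and 5 lower, with a median of 3.55. Ptn, which codes for the PTPRZ ligand pleiotrophin, was at 0 in mESC and had 1457, 1410 and 1459 interactions in mOPC 1FA, and Tnc, a tenascin, had 344, 306 and 399 against 0. Tnr, the tenascin bound by contactin, had 6792, 6812 and 7775 against 1, 10 and 5 (11.43 ± 0.59, adjusted p = 5.16e-07).

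Of 30 other transcription factors of the lineage, 15 were tested, 8 were higher and 5 lower, with a median of 1.33. Zeb2, a zinc finger repressor, had 6221, 6102 and 5337 interactions against 24, 27 and 21 in mESC (8.75 ± 0.14, adjusted p = 3.39e-09), and Myt1, a zinc finger factor of neural progenitors, 1123, 968 and 1074 against 0. Sox13, of the same SoxD group as Sox6, had 421, 326 and 370 in mESC 1FA and was at 0 in mOPC 1FA. Of 16 genes of mature oligodendrocytes, 5 were tested, 3 were higher and 2 lower. Among the higher ones were Mbp, a myelin protein, with 184, 148 and 188 interactions against 15, 16 and 16 (4.25 ± 0.17, adjusted p = 7.95e-08), and Ugt8a, a galactolipid enzyme, with 375, 334 and 370 against 0. Myrf, the regulator of myelin genes, was lower, at 97, 82 and 95 against 247, 212 and 218 (-0.46 ± 0.12, adjusted p = 0.00708).

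The transcripts whose profile over the 15 libraries was most like the members' mean profile of log2 CPM were Limd1 (Pearson r = 0.991), Mapt (0.987), Myt1 (0.986), Gjc3 (0.985) and Wdr93 (0.985), of 5201 compared. The libraries fall into 2 lines, so these values mainly say that a transcript differed between the lines, and no test was made. Gjc3 codes for a gap junction protein of oligodendrocytes and Mapt for the microtubule protein tau.

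Promoter sequences were set beside the capture because the 10 genes include regulators of each other's lineage. RefSeq (GRCm38.p6) promoters, 250 bases before to 50 after each start, were matched for 8 of the 10 genes and gave 15 promoters, since Sox6 and Cntn1 have several starts. The highest numbers of CpG dinucleotides were 29 at Ptprz1 and 25 at Olig2, against a median of 7 over all 32851 promoters, while Pdgfra had 5. The E-box CAGCTG, a form bound by OLIG proteins, is in 16.3% of all promoters (CANNTG, any E-box, in 72.3%, and it contains the former), and the SOX motif ACAAAG is in 18.7%. The variant ACAATG is in 12.6% and the variant AACAAT in 10.7%, and all were searched on both strands. Windows of 3 members, of high and low capture, show where such motifs lay, with the motif in capitals: Lhfpl3 (CAGCTG 158 bases before the start, chr5:22745885-22745912, plus strand), the first start of Sox6 (ACAAAG 113 bases before, chr7:116038841-116038868, minus strand) and Olig2 (ACAATG on the opposite strand, 68 bases before, so that the capitals are its reverse complement, and overlapping AACAAT, chr16:91225471-91225498, plus strand). A match is a description of the letters and not of binding.
Lhfpl3: ctcgcaggcttCAGCTGcagcagctgca
Sox6: ttttttcaggaACAAAGggaatgtggaa
Olig2: caggaaaagcaCATTGTtcccgcccccc
The promoter of Lhfpl3 held CAGCTG at 2 places, and those of Cspg4, Ptprz1 and the first and the third start of Cntn1 held none of the 5 motifs.

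Removal of protein asks which contacts do without it. In mOPC, 9 members were tested between NPM and 1FA, of which 3 were higher, where 31.8% of 11586 transcripts were, and 3 were lower, where 24.1% were. The higher ones were Olig1 with a log2 fold change of 4.40 ± 0.60 (adjusted p = 0.00128), Pdgfra with 2.85 ± 0.50 (adjusted p = 0.00386) and Olig2 with 1.40 ± 0.25 (adjusted p = 0.00392, limma). These are the members of low capture under 1FA, and Olig1 and Pdgfra reached the filter in the NPM libraries alone. The lower ones were Cntn1 with -1.73 ± 0.18 (adjusted p = 0.000398), Sox6 with -1.43 ± 0.21 (adjusted p = 0.00166) and Ptprz1 with -0.88 ± 0.12 (adjusted p = 0.00128). Cspg4 (-0.55 ± 0.24, adjusted p = 0.0986), Lhfpl3 (-0.55 ± 0.24, adjusted p = 0.0940) and Sox10 (0.22 ± 0.24, adjusted p = 0.45) did not pass.

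**Figure D2:**
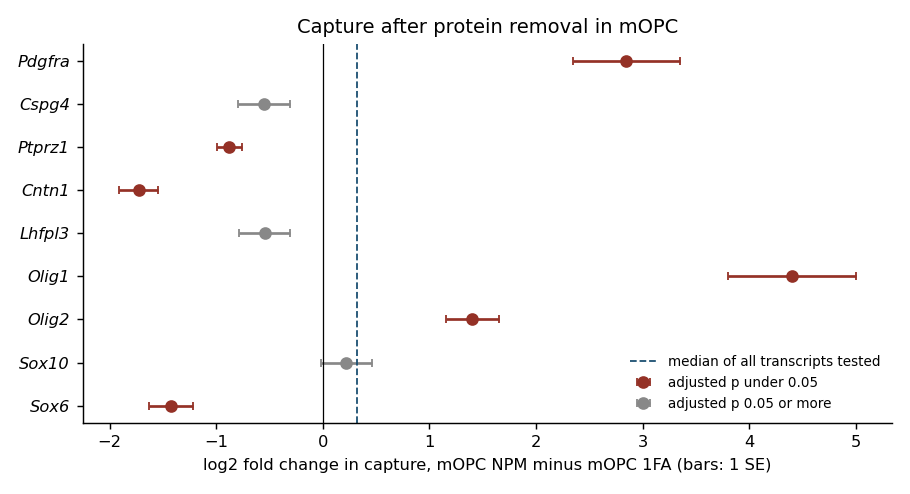
Log2 fold change in capture, mOPC NPM minus mOPC 1FA, for the 9 genes tested, with bars of 1 SE from limma. The dashed line is the median of all transcripts tested, 0.32. Olig1, Pdgfra and Olig2 lie to its right and Cntn1, Sox6 and Ptprz1 to the left of 0.

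These values are relative to the other transcripts, because TMM centres the libraries. Scaling by total moved the median of all transcripts from 0.32 to 1.12 and the split of calls from 3688 higher and 2792 lower to 7272 and 750, and without 1 NPM library it turned to 901 and 1934 (replicate 1) or 1250 and 2106 (replicate 2). Under scaling by total Ptprz1 was at -0.06 and no longer called (adjusted p = 0.606), Sox10 was called higher (1.03, adjusted p = 0.0128) and Lhfpl3 was at 0.27, above 0. Cspg4 also turned above 0 without a call, and the falls of Sox6 and Cntn1 were smaller but still called. Counted without contacts on the own gene, the direction turned for Sox6 (1.64), Cntn1 (0.91), Ptprz1 (0.55) and Lhfpl3 (3.59), and Olig2 was at 0.15 and no longer called (adjusted p = 0.668). These 5 values are relative to all contacts off the own gene, which were few under NPM. Own-gene contacts were 95.5% and 93.0% of the mOPC NPM libraries and 35.7%, 32.2% and 34.9% of the mOPC 1FA libraries. The values therefore do not show that such contacts became more numerous. Leaving out either mOPC NPM library leaves 1 library in that group, which is then assumed to vary like the 1FA libraries. The calls of Pdgfra (adjusted p = 0.0780 without replicate 1 and 0.0517 without replicate 2), Sox6 (0.182 and 0.253) and Cntn1 (0.0556 and 0.121) then ended, with fold changes of 2.53 and 3.09, -1.44 and -1.50, and -1.89 and -1.65. Without replicate 1 that of Olig2 ended too (1.17, adjusted p = 0.0936) and Cspg4 was called lower (adjusted p = 0.0389). Without mOPC 1FA replicate 3, Sox10 was called higher (0.44, adjusted p = 0.0235).

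In mESC, 3 members could be tested for the same change and 1 was called lower, where 28.4% of 11410 transcripts were (2825 higher and 3243 lower, or 5564 and 1276 with scaling by total). It was Sox6, with 0 in both NPM libraries (adjusted p = 2.27e-05), which reached the filter in 1FA libraries alone. Cspg4 had a log2 fold change of 0.06 ± 0.50 (adjusted p = 0.93), and Pdgfra one of 1.79 ± 0.70 that missed the threshold (adjusted p = 0.0530) but passed without any 1 of the mESC 1FA libraries, at 0.90 without replicate 1 (adjusted p = 0.0142), 2.29 without replicate 2 and 2.35 without replicate 3. Whether the change differed between the lines could be asked of the 6 members with interactions in both lines, since Olig1, Olig2, Cntn1 and Lhfpl3 were at 0 in all these mESC libraries. It was called for 2 of the 6, where 35.7% of 13593 transcripts were called in either direction. Sox6 was one of them (adjusted p = 4.51e-08), with mESC NPM at 0 and so no fixed size. Ptprz1, with 1 to 5 interactions per mESC library of these groups, had a difference of -2.97 ± 0.67 (adjusted p = 0.00751).

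For the same lists, the shares over all transcripts between mOPC NPM and mOPC 1FA were 31.8% higher and 24.1% lower. Of the 23 signalling genes tested, 5 were higher and 11 lower. Erbb2, a receptor kinase of which an activated form was used to establish the Oli-neu line, rose from 10, 16 and 20 interactions to 200 and 177 (3.59 ± 0.34, adjusted p = 0.000247). Whether tags of that transgene were counted was not tested. Erbb4 fell from 3937, 4007 and 3983 to 1673 and 1261 (-1.49 ± 0.14, adjusted p = 0.000229), and Fgfr2, a growth factor receptor, from 2341, 2672 and 2451 to 1011 and 896 (-1.42 ± 0.14, adjusted p = 0.000270). Of 18 contactin and PTPRZ partners, 8 were higher, among them the proteoglycan Bcan (2.37 ± 0.22, adjusted p = 0.000192), and 7 lower, among them the adhesion protein Nfasc (-1.61 ± 0.16, adjusted p = 0.000295) and Tnr (-1.30 ± 0.17, adjusted p = 0.00111). Of 18 lineage transcription factors, 6 were higher and 9 lower, the latter led by Zeb2 (-1.88 ± 0.16, adjusted p = 0.000162), Tcf4 (-1.77 ± 0.14, adjusted p = 0.000114) and Nfia (-1.68 ± 0.13, adjusted p = 7.98e-05). Of 7 genes of mature oligodendrocytes, 3 were higher and 2 lower, among the latter Ugt8a (-1.19 ± 0.18, adjusted p = 0.00224).

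Where the DNA tags of the members' RNA lay was described by 4 shares of each RNA's interactions. These were tags within 1 kb of the RNA tag, tags on the gene that made the RNA, tags on the same chromosome (cis) beyond 1 Mb, and tags on another chromosome (trans). The 6 members with at least 50 interactions in every mOPC 1FA and NPM library were compared (Cspg4, Ptprz1, Cntn1, Lhfpl3, Sox10 and Sox6).

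Contacts within 1 kb were few under 1FA and most of all contacts under NPM. Cspg4 went from 6.01% ± 1.10 (SD, n = 3) to 90.3% ± 1.09 (n = 2), Sox10 from 11.9% to 83.2%, Sox6 from 2.54% to 85.3%, Ptprz1 from 4.43% to 85.7%, Cntn1 from 2.70% to 82.8% and Lhfpl3 from 4.05% to 71.8% ± 2.06. NPM and 1FA libraries were apart for all 6, as for 3826 (100%) of the 3827 transcripts with at least 50 interactions per library, whose median went from 6.78% to 92.8%. The mean share on the own gene was between 25.4% and 33.6% under 1FA and between 74.0% (Lhfpl3) and 98.5% (Sox10) under NPM, without overlap for all 6 and for 99.9% of the transcripts. Each of these differences reached the smallest two-sided p that 3 against 2 libraries allow in an exact permutation test, 0.1 (0.109 after Benjamini-Hochberg adjustment over 24 comparisons).

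**Figure D3:**
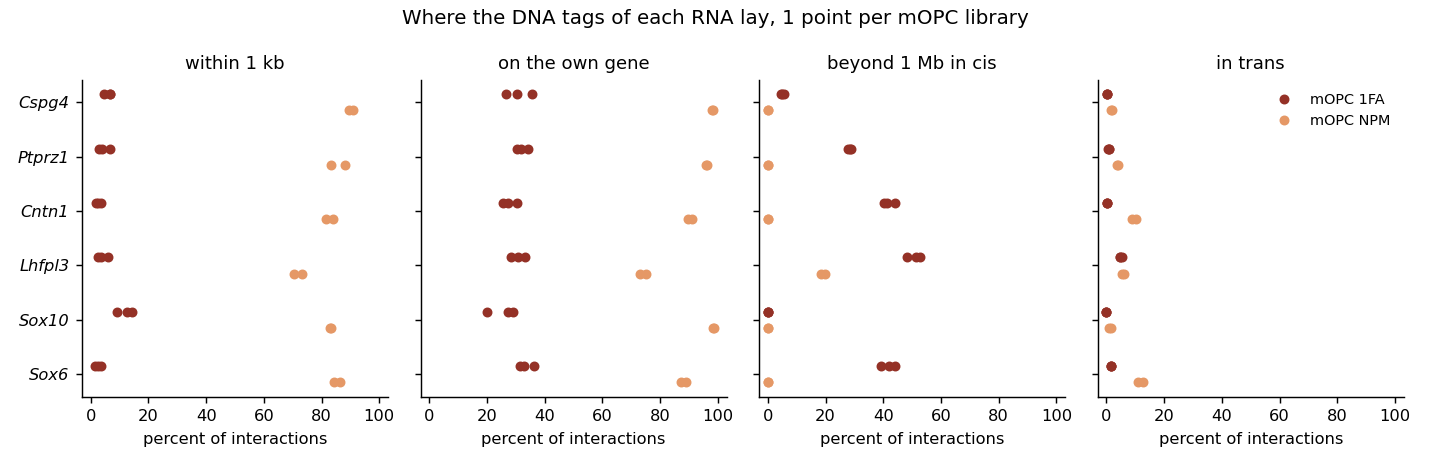
Percent of the interactions of each RNA in 4 classes, for the 6 genes with at least 50 interactions in every mOPC library. Each point is 1 library. The NPM libraries lie to the right of 70% within 1 kb for all 6 genes, and beyond 1 Mb in cis Lhfpl3 has shares of 18.3% and 19.8% after protein removal while the other 5 genes lie near 0.

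Distant cis contacts set the members apart from each other. Under 1FA, Lhfpl3 had 48.4%, 52.8% and 51.4% of its contacts beyond 1 Mb, Cntn1 40.2%, 44.0% and 41.3%, Sox6 39.3%, 44.0% and 42.0%, and Ptprz1 28.5%, 28.8% and 27.8%. Cspg4 had a mean of 5.00% and Sox10 had 0. These 4 higher values lie in the upper part of the 3827 transcripts, with ranks of 25, 58, 59 and 156, against a median of 0.987% over the transcripts and 14% to 15.7% over whole libraries. The median cis distance under 1FA was 1051, 1429 and 1402 kb for Lhfpl3, 613, 760 and 660 kb for Cntn1, 564, 725 and 661 kb for Sox6, 285, 406 and 314 kb for Ptprz1, 40.4, 52.7 and 37.3 kb for Cspg4 and 12.2, 32 and 11.1 kb for Sox10. The distances did not follow gene length throughout: Sox6, the longest gene of these 6 (567.9 kb), overlapped in distance with the shorter Cntn1 and lay below Lhfpl3 (529.5 kb), while Sox10, the shortest (10.3 kb), had the shortest distances. The mean number of interactions in mOPC 1FA ran in nearly the same order as the distances. It was 13027 for Lhfpl3, 12502 for Sox6, 9684 for Cntn1, 3039 for Ptprz1, 1301 for Cspg4 and 357 for Sox10. Only pairs past a threshold are listed, so an RNA with more interactions may list more distant pairs. The part of capture or gene length in this order, and in the ranks above, was not tested.

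Under NPM the contacts beyond 1 Mb were 0 for Cspg4, Sox6 and Ptprz1 and 0.0868% and 0.230% for Cntn1. Lhfpl3 had 18.3% and 19.8%, the highest mean share of the 3827 transcripts, whose median was 0. The groups did not overlap for 5 of the 6 (Sox10 was at 0 in both), as for 51.2% of the transcripts, at the same smallest p of 0.1 in the exact permutation test. The distant contacts of Lhfpl3 under NPM numbered 1698 and 1782, and 99.2% of them in both libraries lay in the first 45 Mb of chromosome 5, which holds the gene itself (chr5:22746059-23275597). Under 1FA the same stretch took 78.3%, 77.8% and 76.3% of 6249, 6969 and 6670 distant contacts. The genes most contacted by Lhfpl3 under NPM other than itself were Bre (70 and 96 interactions, at a median of 8.94 Mb) and Plb1 (67 and 78, at 9.37 Mb).

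**Figure D4:**
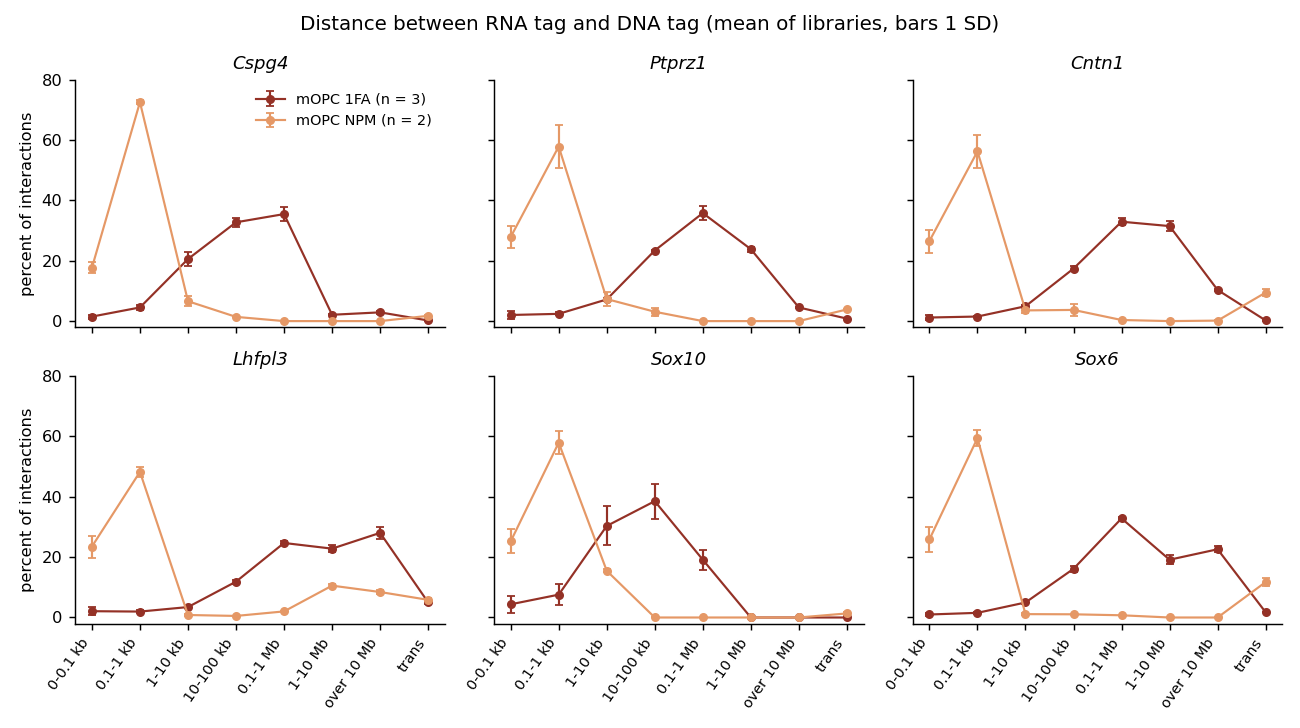
Percent of the interactions of 6 RNAs by the distance between RNA tag and DNA tag, in mOPC 1FA (n = 3) and mOPC NPM (n = 2). Points are means of libraries and bars are 1 SD. NPM contacts peak at 0.1 to 1 kb in all 6 genes, and Lhfpl3 has a second group at 1 Mb and beyond.

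Contacts in trans were rare under 1FA: 1.71% to 1.76% for Sox6, 0.199% to 0.260% for Cntn1, 0.632% to 0.974% for Ptprz1 and 4.75% to 5.57% for Lhfpl3. In NPM they were 10.9% and 12.6% for Sox6, 8.73% and 10.2% for Cntn1, and 3.75% and 3.97% for Ptprz1. The NPM libraries were above the 1FA libraries for 5 of the 6 members, and for 11.2% of the 3827 transcripts. The median trans share of these transcripts was 0 in both groups. A transcript with no listed trans contact under NPM could not be above, so the count is not read against that 11.2%. The 5 members were Sox6, Cntn1, Ptprz1, Cspg4 and Sox10, each at p = 0.1 in the exact permutation test, the smallest possible. For Lhfpl3, at 5.50% and 6.21%, the exact permutation test gave p = 0.3. In whole libraries the trans share went the other way, from 13.3%, 12.6% and 11.3% to 3.93% and 6.27%. Those totals include the noncoding RNA Malat1, for which the paper lists the most trans contacts of the lncRNAs in mOPC. Malat1 was 13.2%, 12.2% and 10.8% of all interactions in mOPC 1FA and 4.35% and 7.10% in NPM. Its part in the fall was not separated, so the fall need not hold for other RNAs. In numbers of interactions Sox6 had 217, 225 and 208 trans contacts in mOPC 1FA and 539 and 580 in NPM, and Cntn1 19, 20 and 26 in 1FA and 302 and 266 in NPM.

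The trans contacts of Sox6 and Cntn1 gathered in the stretch of chromosome 5 that took the distant contacts of Lhfpl3. Its first 45 Mb held 59.9%, 58.2% and 57.2% of the trans contacts of Sox6 under 1FA and 75.9% and 75.7% under NPM. For Cntn1 it held 52.6%, 70.0% and 30.8% under 1FA, of few contacts, and 67.5% and 70.3% under NPM. Over all RNAs the same stretch took 9.77%, 9.87% and 9.95% of trans contacts in mOPC under 1FA and 52.4% and 52.3% under NPM. In mESC it took 0.828% to 0.864% under 1FA and 0 under NPM. Malat1 is among these RNAs and was not separated from the others. An RNA of chromosome 5 cannot have a trans contact there, so shares were also set against other RNAs of the member's own chromosome, which have the same targets. They were 5.48%, 9.25% and 6.34% under 1FA and 36.2% and 31.8% under NPM for chromosome 7, which holds Sox6, and 26.2%, 21.7% and 14.7% and then 54.3% and 49.3% for chromosome 15, which holds Cntn1. The shares of Sox6 and Cntn1 were above both in each mOPC library. Without DNA tags on chromosome 15, all RNAs had 65.0% and 65.3% under NPM, close to Cntn1. Ptprz1, with 33.3% and 25.8% of its 69 and 62 trans contacts under NPM, was below the share over all RNAs. It was above the other RNAs of its own chromosome 6, which had 17.6% and 14.4%. The part of this stretch in the values of Lhfpl3, Sox6 and Cntn1 was not tested.

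Trans contacts of Lhfpl3 lay on chromosome 15 in 30.9%, 27.6% and 29.8% under 1FA and 36.2% and 34.3% under NPM. Over all RNAs, Malat1 included and without DNA tags on chromosome 5, chromosome 15 took 10.8%, 11.1% and 11.2% under 1FA and 41.4% and 42.4% under NPM. Lhfpl3 was thus above this share under 1FA and below it under NPM. Among other RNAs of chromosome 5, chromosome 15 took 3.28% to 3.71% under 1FA and 1.79% and 1.03% under NPM. The stretch from 61 to 67 Mb there took 16.5%, 14.5% and 13.6% of the trans contacts of Lhfpl3 and then 21.5% and 20.5%, against 1.65% to 1.86% and 15.5% in both NPM libraries over all RNAs, counted in the same way. A small cluster on chromosome 1, from 96 to 97 Mb, held 49, 35 and 35 contacts in the mOPC 1FA libraries over 4 bins, each from a different RNA position and to a different DNA position. All trans contacts there belonged to Lhfpl3, and the mESC groups and mOPC NPM had none.

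The genes most contacted in cis under 1FA included neighbours and genes farther along the chromosome. Lhfpl3 RNA met Reln (550, 614 and 463 interactions, median distance 0.907 Mb), Magi2 (269, 298 and 272 at 2.93 Mb) and Sorcs2 (169, 170 and 200 at 13.2 Mb). Cntn1 RNA met Slc2a13 (451, 510 and 456 at 0.736 Mb), Pdzrn4 and Lrrk2, and Ptprz1 RNA met Cped1 (192, 193 and 152 at 0.801 Mb), Kcnd2 and Cadps2. Sox6 RNA met DNA annotated as Fgfr2 in 408, 483 and 385 interactions, at a median of 16.3 Mb. Its neighbour Plekha7 had 367, 350 and 374 at 0.488 Mb. The gap between the annotated Sox6 and Fgfr2 genes is 14124 kb, so many of these tags lay well past the near end of the Fgfr2 annotation. Counts were not scaled by the length of the contacted gene, so the order of the 2 is not read.

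Shorter members, which also had fewer interactions, reached less far. Cspg4 RNA met Lingo1, which codes for a surface protein that restrains myelination (88, 114 and 119 interactions at 0.167 Mb), and Sox10 RNA met Gm10863 (59, 61 and 90 at 0.0390 Mb) and Polr2f. Pooled over the libraries of a group, the RNA of Lhfpl3 was found in 1235 different bins in mOPC 1FA and 308 in NPM. That of Sox6 was found in 1037 and 108, Cntn1 in 653 and 60 and Ptprz1 in 286 and 17. Cspg4 was found in 80 and 5, Sox10 in 25 and 2, and Olig2 in 5 and 1. The pools differ in libraries and interactions (39081 and 18321 for Lhfpl3), so these numbers are not compared at like depth.

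Contacts among the members were few. Sox6 RNA met Lhfpl3 DNA in 15, 10 and 20 interactions under 1FA and 21 and 23 under NPM, within the stretch of chromosome 5 named above. Lhfpl3 RNA met Cntn1 DNA in 10, 3 and 9 and Pdgfra DNA, on its own chromosome, in 7, 5 and 4 interactions under 1FA.

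The RNA tags of long members were intronic, which is where unspliced transcripts are read. The intronic share was 99.0% to 99.2% for Lhfpl3, 96.8% to 97.4% for Cntn1, 95.7% to 96.2% for Sox6 and 90.4% to 93.2% for Ptprz1 in mOPC 1FA. Under NPM it stayed at 99.0% and 99.4% for Lhfpl3 and at 93.1% and 94.6% for Sox6, and was 80.9% and 93.3% for Cntn1 and 67.8% and 79.6% for Ptprz1. Coding exons of Ptprz1 took 3.19% to 5.17% of its tags under 1FA and 25.6% and 16.4% under NPM. In Sox10 they took 15.1% to 20.8% and then 37.8% and 37.9%, and in Cspg4 11.3% to 19.7% and then 52.3% and 34.6%. The NPM libraries were above the 1FA libraries in coding share for these 3 genes, and also for Cntn1 and Sox6. Olig2 went the other way, with both NPM libraries below all 1FA libraries, and for Lhfpl3 the groups overlapped. Pdgfra, Olig1 and Nkx2-2 had few or no tags in mOPC 1FA and were not compared. How many other transcripts rose or fell in coding share was not counted, so nothing particular to the members is read from this. Olig1 tags under NPM fell in the 3′ UTR in 89.4% and 87.5%. Lhfpl3 shares 61.8 kb of its start with the noncoding gene 6030443J06Rik on the same strand, and 311 of its 57402 tags lay there, so reads of that stretch may be split between both genes.

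Seen from the DNA side, the members were also met by RNAs of other genes, and these were counted without the gene's own RNA. Of the 10 genes, 8 passed the filter between mOPC 1FA and mESC 1FA: 6 were higher in mOPC, where 32.5% of 17664 genes were, and 1 was lower, where 34.6% were. Lhfpl3 DNA had 220, 157 and 213 tags in mESC 1FA and 9547, 8953 and 9220 in mOPC 1FA (6.11 ± 0.13 on the log2 scale, adjusted p = 4.76e-10, limma). Cntn1 DNA had 10, 3 and 18 against 1086, 1041 and 1076 (7.45 ± 0.42, adjusted p = 6.07e-08). The lines did not overlap for either gene, where 12675 of the 17664 genes tested did not overlap in either direction. The own RNA of both was at 0 in mESC. Lhfpl3 lies in the first 45 Mb of chromosome 5, which took a larger share of trans contacts over all RNAs in mOPC 1FA than in mESC 1FA. The overlapping 6030443J06Rik gave 1353, 1140 and 1190 of the Lhfpl3 tags in mOPC 1FA. The part of either in the rise on Lhfpl3 was not tested, so the rise is not read as particular to this gene.

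Smaller increases were found for Sox10, with 47, 40 and 39 tags against 115, 130 and 104 (2.00 ± 0.14, adjusted p = 4.60e-07), and Ptprz1, with 46, 49 and 80 against 193, 153 and 129 (2.00 ± 0.20, adjusted p = 6.15e-06). Pdgfra DNA had 56, 49 and 50 tags in mESC 1FA and 92, 99 and 133 in mOPC 1FA (1.58 ± 0.18, adjusted p = 2.27e-05), although its RNA was scarcely captured in mOPC. Cspg4 DNA had 67, 73 and 76 against 127, 120 and 109 (1.26 ± 0.13, adjusted p = 6.51e-06). Nkx2-2 did not pass (53, 46 and 40 against 31, 19 and 33, -0.23 ± 0.26, adjusted p = 0.465), and Olig1 and Olig2, with at most 10 tags in a library, were not tested.

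Sox6 DNA went down, from 821, 441 and 777 tags to 145, 148 and 144 (-1.62 ± 0.18, adjusted p = 1.29e-05), while its own RNA on it rose from 51, 51 and 48 to 4547, 4036 and 4010. Other RNAs led on Sox6 in mESC 1FA. Plekha7 RNA, from a gene 84.7 kb away, gave 668, 335 and 559 of the tags in mESC 1FA and 0, 2 and 0 in mOPC 1FA, and Tead1 RNA gave 69, 42 and 89 in mESC 1FA. Fgfr2 RNA gave 83, 61 and 126 there, and neither Tead1 nor Fgfr2 RNA was among those listed on Sox6 in mOPC 1FA.

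**Figure D5:**
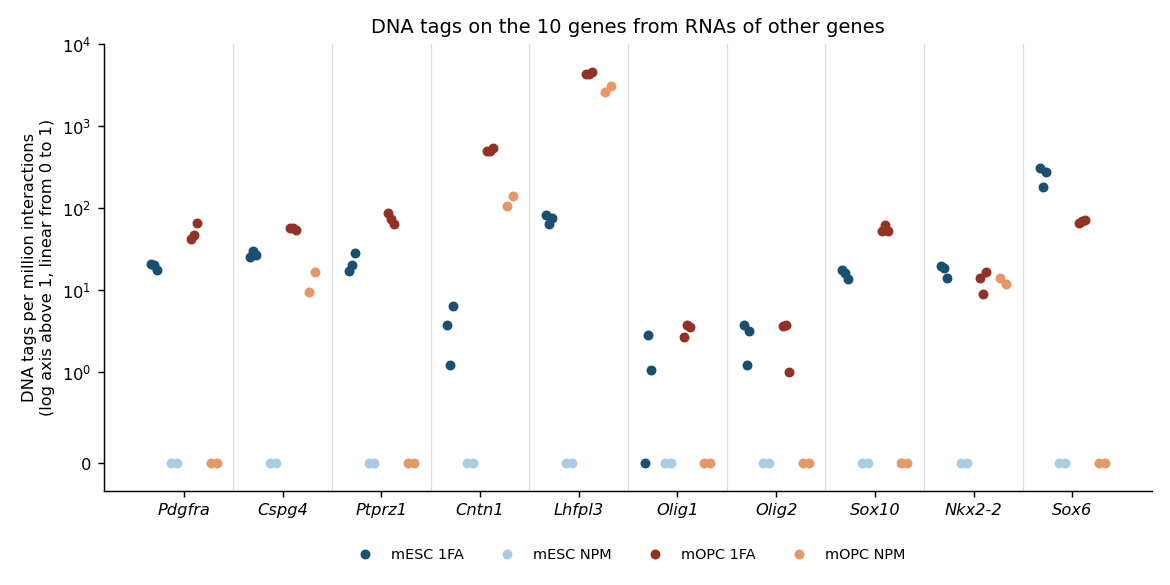
DNA tags on the 10 genes from RNAs of other genes, in CPM (scaled by the total of the library), with 1 point per library. The axis is logarithmic above 1 and linear below. The mOPC 1FA values of Lhfpl3 lie between 4248 and 4612, all above mESC 1FA, while Sox6 lies lower in mOPC 1FA than in mESC 1FA, and all mESC NPM values are 0.

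Malat1, a nuclear noncoding RNA that meets many active genes, led the contacts on most members in mOPC. It gave 1967, 1776 and 1584 tags on Lhfpl3, 410, 345 and 351 on Cntn1, 150, 109 and 75 on Ptprz1, 79, 66 and 73 on Sox6 and 58, 56 and 49 on Cspg4. Malat1 was 13.2%, 12.2% and 10.8% of all interactions in mOPC 1FA and 2.53%, 1.63% and 1.35% in mESC 1FA. Without Malat1 and the abundant small RNA gene Gm22973 the rise on Ptprz1 was 0.47 and no longer called (adjusted p = 0.0796).

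Nearby RNAs came next. On Lhfpl3 these were 5031425E22Rik (1218, 1150 and 1506 tags, 107 kb away) and 6030443J06Rik (1353, 1140 and 1190), and in all 98, 97 and 95 different RNAs met Lhfpl3 in mOPC 1FA against 5 in each mESC 1FA library. Cntn1 was met by Slc2a13 (142, 133 and 172) and by Pvt1, a noncoding RNA 29.7 Mb away (72, 88 and 115). Sox10 was met most by Gm10863, which lies 0.801 kb away (76, 72 and 54 tags), and Pdgfra by Scfd2, 620.5 kb away (28, 50 and 49), which also led in mESC 1FA (27, 21 and 17). Nkx2-2 was met by Ralgapa2 (16, 8 and 15) and Xrn2 (7, 5 and 11), Cspg4 after Malat1 by Ptpn9 (9, 9 and 7), Ptprz1 by Gm4876 (15, 12 and 25), and Sox6 by Xylt1 (56, 73 and 69). On Olig1 and Olig2, Malat1 gave 9 and 14 of the few tags.

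Other RNAs gave 926525 to 1034748 tags on genes per mOPC 1FA library and 177913 and 182384 in mOPC NPM, and the median log2 fold change over 15202 genes was -4.61. Against that background, where 12.2% of genes were higher and 75.1% lower, 2 of 8 members tested were higher and 6 lower. Lhfpl3 DNA had 3322 and 3667 tags in NPM (0.54 ± 0.07, adjusted p = 0.00132, relative to the fallen total of such tags), and 1941 and 1694 of these came from the overlapping 6030443J06Rik and 627 and 972 from Malat1. Scaled by all interactions of the library, it was lower in NPM, at 2610 and 3081 CPM against 4318, 4248 and 4612 in 1FA. Without Malat1 and Gm22973 the log2 value was 0.16 and not called (adjusted p = 0.0909). Nkx2-2 had 18 and 14 tags (1.16 ± 0.32, adjusted p = 0.0204), of which Malat1 gave 10 and 13 and the antisense gene Nkx2-2os 8 and 1, and without mOPC 1FA replicate 1 the call was lost (1.28, adjusted p = 0.0599). Scaled by all interactions, its groups overlapped, with both NPM libraries (14.1 and 11.8 CPM) between the lowest and the highest 1FA library (9.01 and 16.5).

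Cntn1 DNA kept 134 and 165 tags (-0.90 ± 0.13, adjusted p = 0.00164), 119 and 151 of them from Malat1, and Cspg4 DNA 12 and 20 (-0.98 ± 0.25, adjusted p = 0.0153). The call of Cspg4 was lost without any 1 of the mOPC 1FA libraries (adjusted p = 0.0608 to 0.0756) and with scaling by total (-0.47, adjusted p = 0.129). Pdgfra, Sox10, Sox6 and Ptprz1 were listed at 0 in both NPM libraries, reached the filter in 1FA libraries alone and were called lower. In mESC NPM none of the 10 genes had a tag from another RNA.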

How the data were processed

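Per the study's methods, the authors extracted tags (TagDust2), removed rRNA from the RNA tags (RNAdust) and duplicates (FastUniq), aligned RNA and DNA tags to mm10 with BWA 0.7.15-r1140 and annotated them with GENCODE, and the submitters' notes also name CASAVA 1.8. The deposited files list single interactions of pairs whose adjusted p-value passed the authors' one-sided binomial test on pooled replicates in 25-kb bins. Replicates therefore share a list, which narrows the spread between them.

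The 32 samples are RNA and DNA entries of 15 libraries, grouped by their labels. Distinct interactions were counted per transcript and library, scaled (TMM) and tested as log2 CPM (prior count 0.5) with limma 3.58.1 in R 4.3.3 over all transcripts passing a filter (10 interactions in a median library, 15 in total). Transcripts with adjusted p under 0.05 were called. Shares were compared with exact permutation tests (scipy 1.17.1). The tests were checked on simulated data. The backgrounds for trans shares that leave out a chromosome or keep to RNAs of one chromosome were chosen after seeing the data.

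The members and lists were chosen with earlier results of these data known. All members are named, with at most 3 genes per other list (the largest called changes at a mean of 100 interactions or more), the 3 leading RNAs on each member and the 5 most similar transcripts. Alternatives were scaling by total, no filter, a prior count of 2, voom weights, a replicate block, each library left out, Malat1 and Gm22973 left out, pairs counted once, pairs of at least 20, no own-gene contacts, own RNA included and a 2 kb region around starts. Same-numbered libraries of the groups tested against each other correlated at -0.126 to 0.146 after removal of group means, so the numbers did not pair them there. Those of mESC 1FA and 2FA, which no test compared, correlated at 0.183 to 0.355. Precision is limited by the number of libraries. The paper lists raw and uniquely mapped reads for each replicate, and this sequencing depth was not used here.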

Additional observations from a re-analysis of the deposited data

Results flagged for a closer look

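The change in capture after protein removal differed between the lines for 2 of the 6 members with interactions in both lines (limma, interaction term). Of 13593 transcripts 35.7% were called, so the count is near the share over all transcripts and nothing is read from it. The adjusted p of the difference was 4.51e-08 for Sox6, which was at 0 in mESC NPM and turned to -1.55 (adjusted p = 3.17e-05) with pairs of at least 20 interactions, and 0.00751 for Ptprz1, which had 1 to 5 interactions in every mESC 1FA and NPM library. Without contacts on the own gene, Ptprz1 was at -0.15 and not called (adjusted p = 0.511).

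Nkx2-2 had a mean of 1.17 CPM (interactions scaled by the library total) in mESC 2FA, a group outside the comparisons, and was listed at 0 in all mESC 1FA libraries.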

How the results depend on the processing

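Of 702 values of single members under an alternative, 65 changed their side of the threshold or, where called in either fit, their direction. The cause of these was not tested. Without the filter, the transcripts called were 11692 between the lines under 1FA, 9246 under NPM and 8048 for the difference of the NPM effect, and the genes called by DNA tags between mOPC NPM and 1FA were 19948. With each pair counted once, 661 of 667 transcripts tested were called between the lines under NPM, and by DNA tags 7466 of 9154 genes under 1FA and 6534 of 7907 between mOPC NPM and 1FA. Without contacts on the own gene, 521 of 751 transcripts tested were called between the lines under NPM, and in the 2 kb around starts 7133 of 14182 and 7200 of 10983 genes by DNA tags. Leaving out 1 library gave 2522 to 4693 calls between the lines under NPM and 2835 to 6281 between mOPC NPM and 1FA.

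Of the members, 2 were called between mESC NPM and 1FA with scaling by total, a prior count of 2, voom weights, the replicate block or pairs counted once, 3 without the filter, and 0 without own-gene contacts or with pairs of at least 20, and leaving out 1 library gave 1 to 2. Between mOPC NPM and 1FA leaving out 1 library gave 3 to 7 members called. Between the lines under NPM 4 of 4 tested were called with pairs counted once and 4 of 4 without own-gene contacts. For the difference of the NPM effect 5 of 5 members compared were called with pairs counted once, 1 of 4 without own-gene contacts, 4 of 5 with pairs of at least 20 and 2 to 4 without 1 library, and by DNA tags between mOPC NPM and 1FA 4 of 6 tested were called in the 2 kb around starts.

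Reversed directions are listed where a value was called in the main fit or under the alternative. Cspg4 and Lhfpl3, called in neither, also turned above 0 between mOPC NPM and 1FA with scaling by total. Reversed directions between mOPC NPM and 1FA were -1.43 for Sox10 and 0.10 for Lhfpl3 with pairs counted once. Without own-gene contacts, relative to the fewer contacts off the own gene, they were 1.64 for Sox6, 0.91 for Cntn1, 0.55 for Ptprz1 and 3.59 for Lhfpl3. For the difference of the NPM effect they were, for Nkx2-2, -1.22 without mESC NPM replicate 2 (1.68 without replicate 1), 2.76 for Cspg4 and -1.55 for Sox6 with pairs of at least 20, and -1.02 for Sox10 with pairs counted once. By DNA tags they were 3.19 for Sox6 under 1FA with its own RNA included and, between mOPC NPM and 1FA, -1.50 for Nkx2-2 without Malat1 and Gm22973, 1.30 for Cspg4, 1.46 for Sox10, 0.44 for Sox6, 0.10 for Cntn1 and 1.02 for Ptprz1 with own RNA included, and 0.45 for Sox10 in the 2 kb around starts.

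Calls were gained between mOPC NPM and 1FA by Lhfpl3 with no filter (adjusted p = 0.0141), voom weights (0.00173) and pairs of at least 20 (0.0169), and by Cspg4 with pairs counted once (-1.86, adjusted p = 1.50e-08), while Olig2 lost its call without own-gene contacts (adjusted p = 0.668). For the difference of the NPM effect, Pdgfra was called with pairs counted once (adjusted p = 0.00175), pairs of at least 20 (0.00588) and without mESC 1FA replicate 1 (0.0488), Cspg4 with pairs counted once (5.71e-14) and Sox10 without mESC 1FA replicate 1 (0.000879), and Ptprz1 lost its call without own-gene contacts (0.511). By DNA tags between mOPC NPM and 1FA, calls were lost by Lhfpl3 with no filter (0.481) or own RNA included (0.401), Nkx2-2 with own RNA included (0.564) and Cspg4 in the 2 kb around starts (0.683).

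Under the replicate block, 9 members were called between mOPC NPM and 1FA, adding Cspg4 (-0.44, adjusted p = 0.0281), Sox10 (0.47, adjusted p = 0.00427) and Lhfpl3 (-0.54, adjusted p = 0.00386). The call of Cspg4 by DNA tags between mOPC NPM and 1FA was lost under the block (adjusted p = 0.0662). Distances between tag starts were not run, since the single-base tag centres were used here. Members under 20 interactions per library are limited by counting.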
